A study of Homo sapiens with 8 samples.

Results

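The S100 calcium-binding proteins examined here were S100A4, S100A6, S100A8, S100A9, S100A10, S100A11, S100A12, S100A13 and S100P. They were chosen by name as 9 of the 62639 genes of the GENCODE release 44 annotation in the count table, and each gene's level was the sum of its annotated transcripts. The 9 genes had 30 annotated transcripts, of which 23 had at least 1 count. The libraries came from MOLM-13, an established human acute myeloid leukemia (AML) cell line of monocytic type that carries the KMT2A::MLLT3 fusion and a FLT3 internal tandem duplication. Both groups carried a lentiviral construct with constitutive mCherry and a doxycycline-inducible hairpin, and both received doxycycline for 9 days. The knockdown group expressed a hairpin against PTBP1, an RNA-binding protein that represses exons (shPTBP1, n = 4), and the control group expressed a scrambled hairpin (shSCR, labelled shControl or WT in places, n = 4). The comparison asked how the amount and the isoforms of each S100 transcript differed after the PTBP1 hairpin. With 1 hairpin a group, an effect of the hairpin itself and that of lowered PTBP1 cannot be told apart.

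S100 proteins are small proteins with a pair of EF-hand calcium-binding motifs, and most work as dimers that change shape when calcium binds and then dock onto target proteins. S100A8 and S100A9 pair as calprotectin, an abundant cytosolic complex of neutrophils and monocytes, which sequesters metals and, once released, signals through TLR4 and the receptor RAGE. Together with S100A12 they make up the calgranulins, whereas S100A4, S100A6, S100A10, S100A11 and S100A13 bind myosin, annexins and other partners in many cell types. Most human S100 genes lie in a cluster on the long arm of chromosome 1.

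On chromosome 1 (GENCODE 44, GRCh38) the genes ran in the order S100A10, S100A11, S100A9, S100A12, S100A8, S100A6, S100A4 and S100A13. S100A10 (ENSG00000197747, chr1:151982915-151993859) and S100A11 were separated from the others by 1309946 bases, and S100A9 to S100A13 lay between positions 153357854 and 153631360. S100P was the exception, on chromosome 4. The coding sequences held 90 codons in S100A6 to 114 codons in S100A9. In each of the 9 genes, all coding isoforms with a count shared 1 coding sequence, so these isoforms differed outside it. S100A4 shared its position with S100A3 on the same strand, which had 3 counts in all libraries together, and S100A13 overlapped S100A1 on the opposite strand, which had 0 counts. The 9 annotated S100 pseudogenes in the table had 0 counts.

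The 100 bases upstream of the start of the most-counted isoform are shown for the 4 genes that differed between the groups and for S100A9, the partner of S100A8, read 5′ to 3′ on the gene's own strand with the letters TATAAA in capitals. The sequences are from RefSeq (GRCh38.p14), except that of S100A13, which was read from hg38. The windows are chr1:153545807-153545906 for S100A4 (minus strand), chr1:153391074-153391173 for S100A8 (minus), chr1:153357754-153357853 for S100A9 (plus), chr1:151993860-151993959 for S100A10 (minus) and chr1:153628249-153628348 for S100A13 (minus).
S100A4-204: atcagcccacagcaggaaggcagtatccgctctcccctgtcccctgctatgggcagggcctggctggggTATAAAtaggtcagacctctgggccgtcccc
S100A8-202: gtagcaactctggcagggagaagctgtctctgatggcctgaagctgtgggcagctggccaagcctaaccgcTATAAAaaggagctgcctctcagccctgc
S100A9-201: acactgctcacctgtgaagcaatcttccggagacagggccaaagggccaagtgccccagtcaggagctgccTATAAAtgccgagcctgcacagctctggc
S100A10-202: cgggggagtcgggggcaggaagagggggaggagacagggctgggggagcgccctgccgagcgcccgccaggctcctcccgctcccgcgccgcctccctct
S100A13-204: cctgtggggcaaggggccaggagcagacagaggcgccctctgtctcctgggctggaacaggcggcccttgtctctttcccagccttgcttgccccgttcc
TATAAA began at -31 in S100A4 and at -29 in both S100A8 and S100A9, counted from the start site, and these letters were not in the S100A10 and S100A13 windows. Over all members, TATAAA was found in 5 of 9 windows on either strand, the other two being those of S100P at -28 and S100A12 at -8. The same letters were found in 4.99% of 35116 RefSeq promoter windows of that length. This motif was looked for after the sequences had been read. In the 300 bases around the start, the C/EBP letters TTGCNNAA were in 2 of 9 members (S100A11 and S100A12, 10.5% of all promoters), the RUNX letters TGTGGT in 2 of 9 (S100A9 and S100A11, 13.1%) and the PU.1 letters GAGGAAG in 3 of 9 (S100A8, S100A9 and S100P, 13.6%). Both strands were searched and no match of these 4 motifs says that a factor bound there.

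The libraries held 1528449 to 1613342 transcript counts, and levels are given as normalized counts per 1000000 (CPM, scaled by the trimmed mean of M-values), in which 1 count was worth 0.614 to 0.667. PTBP1 was measured at 6.33, 9.91, 8.56 and 14.7 normalized CPM in the 4 shPTBP1 libraries and at 39.9, 57.3, 42.7 and 50.05 in the 4 shSCR libraries. The knockdown was seen in every library, with a log2 fold change of -2.26 ± 0.22 (SE) and an adjusted p of 7.18e-05 by edgeR's quasi-likelihood test with Benjamini-Hochberg adjustment over all 7597 genes tested. All 10 myeloid markers had a count, although SPI1, which encodes PU.1, had 1 count in all libraries together, and the markers summed to 1042 to 1303 counts in shPTBP1 libraries and 1063 to 1202 in shSCR libraries. Of 24 markers of B cells, T cells, eosinophils, epithelial, erythroid and megakaryocytic cells, 16 were at 0 and their sum was 1 to 4 counts in shPTBP1 and 3 to 7 counts in shSCR libraries.

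Of the 9 S100 genes, 8 passed the filter on low counts. In shPTBP1 cells S100A13, S100A4 and S100A10 were lower and S100A8 was higher, and S100A9, S100A6, S100P and S100A11 did not pass the test. Among all genes tested, 3.19% were lower, 2.36% were higher and 5.54% were called in either direction. S100A13 passed the filter only through the shSCR libraries, since it had under 10 counts in every shPTBP1 library. Among the 7 S100 genes with at least 10 counts in every library, 2 were lower and 1 was higher. Well-counted genes were called more often in general. In the fit of genes with a mean of at least 50 counts, which kept these 7, 235 of 3683 genes were lower and 174 were higher. DESeq2 called S100A4 and S100A10, 2 of the 7 S100 genes it gave an adjusted p, and 6.29% of all such genes. The libraries of the 2 groups did not overlap for S100A4, S100A8, S100A10 and S100A13, compared with 12.7% of all genes tested. In these bulk libraries, less RNA per cell and fewer cells of a kind cannot be told apart.

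**Figure D1:**
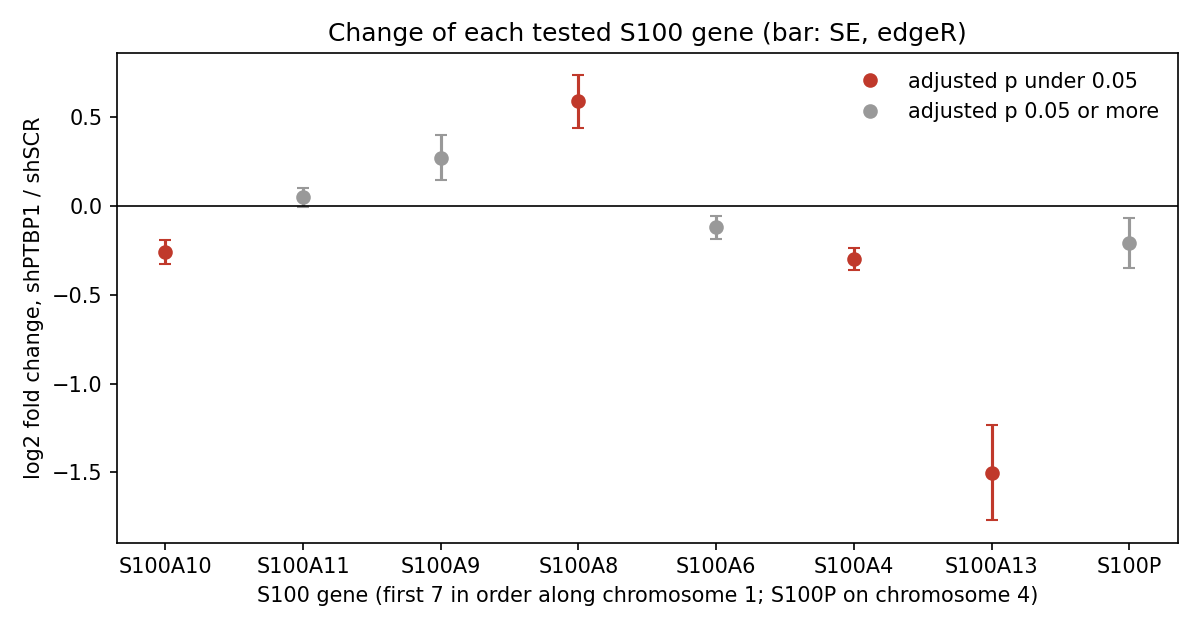
Log2 fold change of each tested S100 gene, shPTBP1 over shSCR, with its SE from edgeR (n = 4 a group), in order along chromosome 1 and then S100P. S100A8 is the gene with a red point above 0, at 0.59, and S100A10, S100A4 and S100A13 are the red points below 0, at -0.26, -0.30 and -1.50.

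The levels spanned a wide range. Per kilobase of transcript, S100A11 was the most abundant, at a mean of 4430 normalized CPM per kb over the 8 libraries, followed by S100A4 (2808), S100A6 (2126) and S100A10 (838). S100A9 (155), S100A8 (86.2) and S100P (80.7) came next, and S100A13 (12.2) and S100A12 (2.33) were lowest. Across libraries S100A4 and S100A6 overlapped on this scale (lowest S100A4 2397, highest S100A6 2452), as did S100A8 and S100P, and the other neighbours in this order did not. The order by normalized CPM differed only in that S100P came before S100A8. Together the 9 genes took 0.536 to 0.543% of all counts in shPTBP1 libraries and 0.570 to 0.608% in shSCR libraries, before scaling. Their summed normalized CPM overlapped between the groups, at 5351 to 5685 in shPTBP1 and 5571 to 6167 in shSCR libraries.

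**Figure D2:**
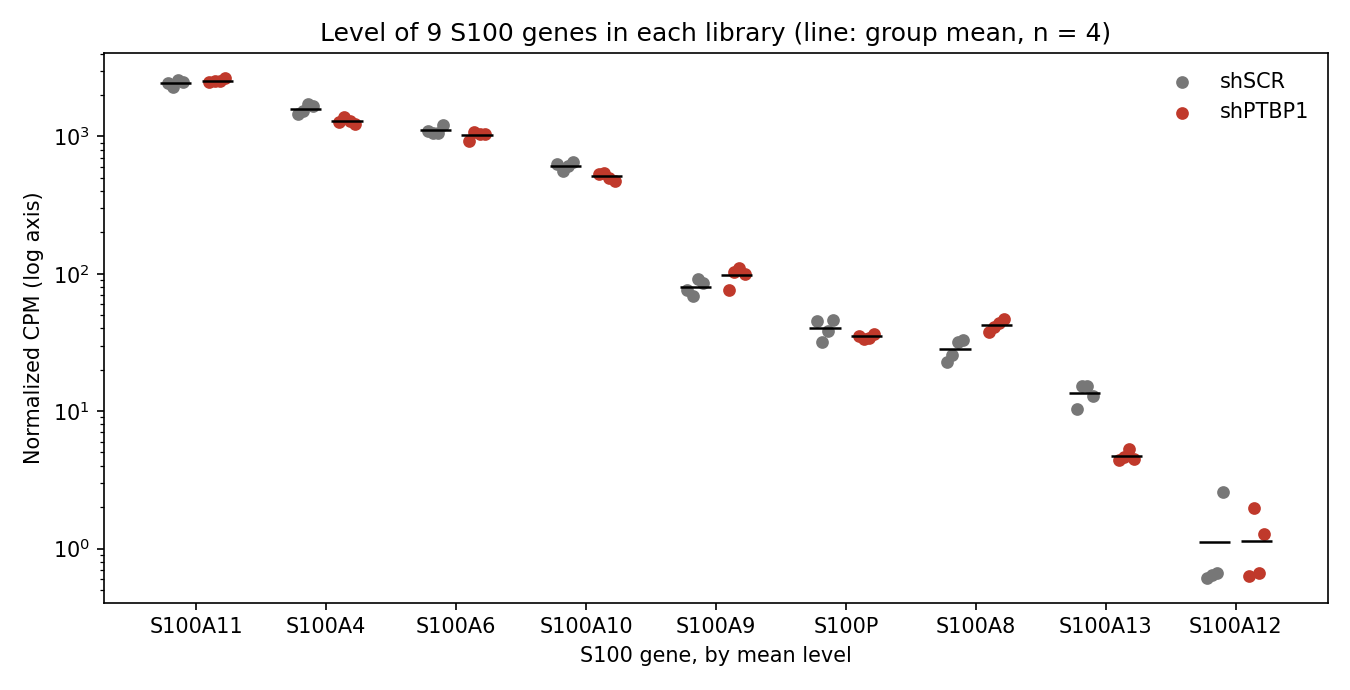
Normalized CPM (log axis) of the 9 S100 genes in each library, shSCR in grey and shPTBP1 in red, with a line at the mean of 4 libraries. The red and grey points are separate for S100A4, S100A10, S100A8 and S100A13, and S100A12 sits at 1 to 4 counts a library.

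Among the calgranulins, S100A8 rose in shPTBP1 cells. S100A8 (ENSG00000143546), the smaller chain of calprotectin, was measured at 38.0, 41.0, 44.1 and 46.7 normalized CPM (60, 62, 67 and 73 counts) in shPTBP1 libraries and at 22.7, 25.5, 32.0 and 32.7 (37, 40, 48 and 51 counts) in shSCR libraries. Every shPTBP1 library was above every shSCR library. The level rose by 50.3%, with means of 42.4 ± 3.81 and 28.2 ± 4.91 (SD, n = 4) and a log2 fold change of 0.59 ± 0.15 (SE) with an adjusted p of 0.0344 by edgeR. The direction held without each library in turn (0.50 to 0.67), but the call was lost without shPTBP1 replicate 2, 3 or 4 or shSCR replicate 1 or 2 (adjusted p up to 0.102) and with DESeq2 (adjusted p = 0.0894).

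S100A9 (ENSG00000163220), the other chain of calprotectin, was measured at 75.9, 103, 111 and 99.9 normalized CPM in shPTBP1 libraries and at 75.6, 68.8, 92.0 and 86.0 in shSCR libraries. Replicate 1 of shPTBP1 lay among the shSCR libraries, and the other three were above them. The log2 fold change was 0.27 ± 0.13 (SE), with an unadjusted p of 0.0481 and an adjusted p of 0.256 by edgeR. The difference did not pass after adjustment over all genes tested. S100A12, a ligand of RAGE, had 1, 3, 1 and 2 counts in shPTBP1 libraries and 1, 1, 1 and 4 counts in shSCR libraries, and a difference was not detectable at this depth.

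The balance of the calprotectin chains was compared as a count ratio within each library. There were 0.50, 0.397, 0.399 and 0.468 S100A8 counts per S100A9 count in shPTBP1 libraries and 0.301, 0.370, 0.348 and 0.381 in shSCR libraries. The groups did not overlap, with a log2 difference of 0.33 and a p of 0.0286 by a two-sided exact permutation test, the smallest that 4 against 4 libraries can give. After Benjamini-Hochberg adjustment over the 3 ratios tested the exact test gave 0.0857, which misses 0.05. With 3 ratios, a ratio at the smallest p could not pass unless another also reached it. The change of S100A8 was therefore not shown to differ from that of S100A9, and this test could not decide it. Relative to LYZ, the lysozyme gene of monocytes and granulocytes, S100A8 counts were 0.124 ± 0.0109 in shPTBP1 and 0.103 ± 0.0118 in shSCR libraries (SD, n = 4), a log2 difference of 0.28 with an exact permutation p of 0.0571 and an adjusted p of 0.0857.

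**Figure D3:**
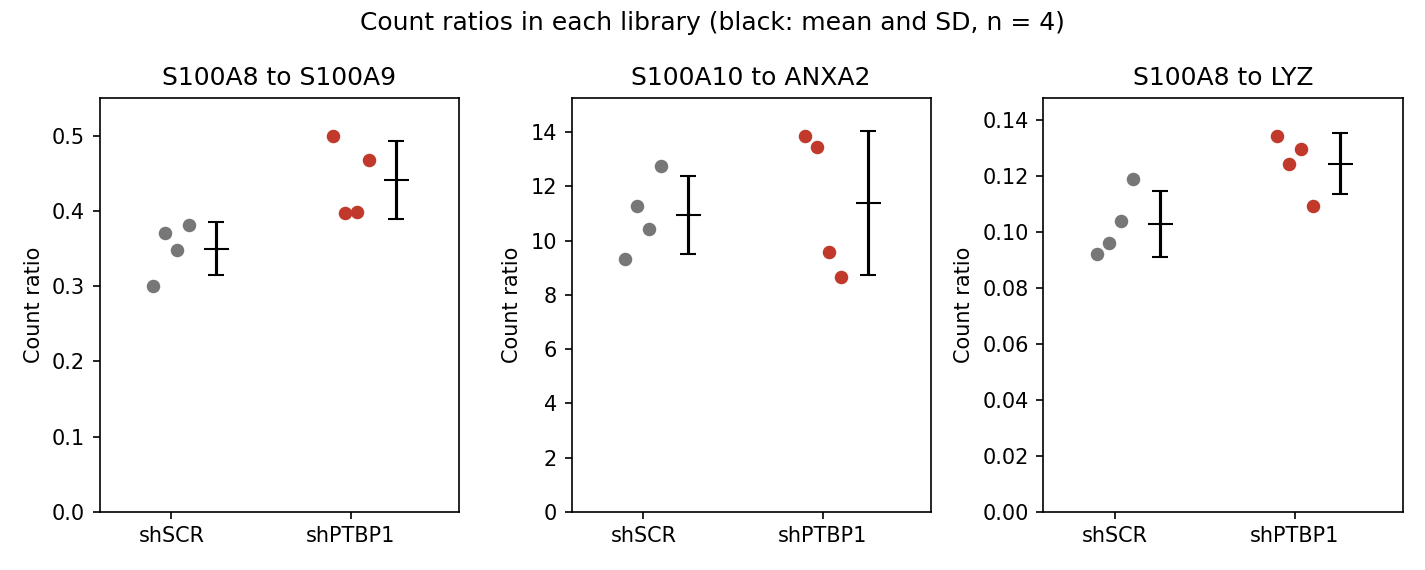
Ratios of counts within each library for S100A8 to S100A9, S100A10 to ANXA2 and S100A8 to LYZ (y axes, no unit), with shSCR in grey, shPTBP1 in red, and mean and SD in black. In the left panel the shPTBP1 libraries (0.397 to 0.50) lie above the shSCR libraries (0.301 to 0.381), and in the middle panel the groups overlap.

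S100A4 and S100A10, which were among the 4 most abundant members, were each lower in shPTBP1 cells by a small amount. S100A4 (ENSG00000196154), which binds non-muscle myosin IIA and is known for its role in cell migration, was measured at 1275, 1379, 1295 and 1232 normalized CPM in shPTBP1 libraries and at 1452, 1538, 1728 and 1649 in shSCR libraries. Each shPTBP1 library was below each shSCR library. S100A4 fell by 18.6%, a log2 fold change of -0.30 ± 0.063 (SE) with an adjusted p of 0.0168 by edgeR, and DESeq2 gave 0.000279. The call was lost without shPTBP1 replicate 3 or 4 or shSCR replicate 4, where edgeR's adjusted p was at most 0.0625 and the log2 fold change stayed between -0.34 and -0.26 over all such fits.

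S100A10, also called p11, forms a tetramer with annexin A2 and is not itself calcium-regulated. It was measured at 535, 542, 498 and 471 normalized CPM in shPTBP1 libraries and at 626, 560, 611 and 654 in shSCR libraries. The groups did not overlap, although the lowest shSCR library (560) was close to the highest shPTBP1 library (542). S100A10 fell by 16.5%, a log2 fold change of -0.26 ± 0.068 (SE) with an adjusted p of 0.0417 by edgeR. With edgeR the call held in 2 of the 8 fits that left out 1 library (without shPTBP1 replicate 1 or shSCR replicate 2) and was lost with the replicate number as a block (adjusted p = 0.0860), whereas DESeq2 kept it (adjusted p = 0.0139).

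The partner of S100A10, ANXA2, had a log2 fold change of -0.29 with an adjusted p of 0.288 by edgeR. The ratio of S100A10 to ANXA2 counts was 11.4 ± 2.66 in shPTBP1 and 10.9 ± 1.44 in shSCR libraries (SD, n = 4), a log2 difference of 0.037 (exact permutation p = 0.83). Its sign turned without shPTBP1 replicate 1 or 2 or shSCR replicate 1, with values of -0.068, -0.053 and -0.036.

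The largest change was in S100A13 (ENSG00000189171), which takes part in the unconventional secretion of FGF1 and interleukin-1 alpha. It had 7, 7, 8 and 7 counts in shPTBP1 libraries and 17, 24, 23 and 20 counts in shSCR libraries. The means were 4.70 ± 0.386 and 13.5 ± 2.33 normalized CPM (SD, n = 4), and the groups did not overlap. At 7 or 8 counts a library, the small SD of the shPTBP1 group is not a sound measure of the spread. The log2 fold change was -1.50 ± 0.27 (SE) with an adjusted p of 0.00654 by edgeR, but the gene entered the test only through the shSCR libraries, where it was high, and no shPTBP1 library had 10 counts. With no filter on low counts, where that does not apply, it was also -1.50, and edgeR gave an adjusted p of 0.00443. The gene rested on 29 and 84 counts in all and was left out at a mean of at least 50 counts. DESeq2 gave a wider SE (log2 fold change -1.52 ± 0.44) and set no adjusted p for it (unadjusted p = 0.000624). The cargo genes FGF1 and IL1A had 0 and 3 counts in all libraries.

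S100A6, S100A11 and S100P did not pass the test. S100A6, or calcyclin, which binds the ubiquitin-pathway protein CACYBP, was measured at 1017 ± 66.5 normalized CPM in shPTBP1 and 1105 ± 70.9 in shSCR libraries (SD, n = 4), a change of -0.12 ± 0.065 (SE) on the log2 scale with an adjusted p of 0.343 by edgeR. S100A11, which binds annexin A1, was measured at 2537 ± 83.2 and 2450.5 ± 127 normalized CPM (SD, n = 4) and had a difference of 0.050 ± 0.053 (SE) on the log2 scale, with an adjusted p of 0.670 by edgeR. S100P, which binds ezrin, was measured at 35.4, 33.7, 34.2 and 36.5 normalized CPM in shPTBP1 libraries and at 45.5, 31.8, 38.0 and 46.2 in shSCR libraries, where the spread was wider (log2 fold change -0.21 ± 0.14, edgeR adjusted p = 0.459). The groups overlapped for each of these genes.

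The isoforms of the S100 transcripts were compared because PTBP1 acts on splicing. PTBP2, of the same family, was at a mean of 124 normalized CPM in shPTBP1 and 1.45 in shSCR libraries (768 and 9 counts in all). The paper proposes that PTBP2 makes up in part for the loss of PTBP1. Whether it acted on the S100 isoforms was not tested. In 7 of the 9 genes 1 isoform held over 96% of the counts in all libraries together. S100A6 was one exception, with 60.6, 61.4, 63.8 and 62.4% of its counts on S100A6-201 in shPTBP1 libraries and 64.3, 62.8, 62.6 and 66.7% in shSCR libraries. The remainder was nearly all S100A6-205, which has the same coding sequence, a first exon that starts 224 bases further upstream and an earlier splice acceptor at its second exon. The mean shares of S100A6-205 were 37.9% ± 1.36 and 35.8% ± 1.84 (SD, n = 4), and these overlapped (exact permutation p = 0.114, 0.286 adjusted over 5 shares). How the counting divided reads that end short of the first exon was not given in the sources used here.

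S100A13 was the other exception, with 73.2% ± 20.5 of its counts on S100A13-204 in shPTBP1 and 78.9% ± 7.57 in shSCR libraries (SD, n = 4), and the rest mainly on S100A13-206, which has no annotated coding sequence, and S100A13-205. With 21 and 67 counts on S100A13-204 in all, the fall of S100A13 could not be assigned to 1 isoform, and a shift of its shares was not detectable at this depth (exact permutation p = 0.657, 0.929 adjusted). The exon-level test of edgeR, applied to transcripts, takes only genes with more than 1 isoform past the count filter. It covered 5 isoforms of S100A4 and S100A6, and 0 were called, with a smallest adjusted p of 0.999995 (1.12% of the 5464 isoforms tested were called in all genes). Well-counted isoforms that stood alone, such as S100A11-201 with 30961 counts, were not tested.

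The other S100 family genes had few or no counts. Of 12 such genes, 9 (S100A1, S100A7, S100A7A, S100A7L2, S100A14, S100A16, S100B, S100G and S100Z) had 0 counts in every library, which allows a level of up to 0.241 normalized CPM over the 8 libraries (3 counts) for reads that the counting assigned to the gene. SPI1 and JUN, which myeloid cells use, were also listed at 1 and 0 counts in all libraries, so a 0 is a value of this table and does not show that a gene was silent. S100A2 had 13 counts in shPTBP1 and 25 in shSCR libraries, S100A5 had 3 and 9, and S100A3 had 2 and 1. None of the 12 passed the filter.

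Among 34 genes for S100 partners and receptors, 19 passed the filter, 2 were lower (3.19% of all genes tested) and 0 were higher (2.36%), with a median log2 fold change of -0.14 (-0.000141 over all genes tested). IQGAP1, a scaffold of the actin cytoskeleton that binds S100P, fell from 130.5 ± 15.4 to 88.3 ± 6.78 normalized CPM (SD, n = 4), a change of -0.56 ± 0.10 (SE) on the log2 scale with an adjusted p of 0.00618 by edgeR. ITGB2, the β2 integrin chain, fell from 163 ± 30.1 to 98.5 ± 25.1 (log2 fold change -0.73 ± 0.16, edgeR adjusted p = 0.0193), a call that was lost without shPTBP1 replicate 2, 3 or 4 or shSCR replicate 2 or 4 (adjusted p up to 0.0758). The annexins ANXA1 and ANXA5 had log2 fold changes of -0.72 and -0.31 with edgeR adjusted p-values of 0.0791 and 0.135. Both had libraries that did not overlap between the groups, as did 5 of the 19 genes tested, RAC2 (0.094) among them on the higher side, compared with 12.7% of all genes. ANXA6 had a log2 fold change of 0.023. RAC2 and ANXA6 were named after their values were seen.

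The receptors that calprotectin and S100A12 use were at low counts. AGER, which encodes RAGE, had 19 counts in shPTBP1 and 24 in shSCR libraries, TLR4 had 4 and 2, its co-receptor LY96 had 3 and 4, and CD36 had 1 and 0. BSG, which encodes the S100A9 receptor basigin, was measured at 157 ± 5.68 and 169 ± 17.2 normalized CPM (SD, n = 4, edgeR adjusted p = 0.558). Of the NADPH oxidase genes, whose complex calprotectin promotes in phagocytes, CYBA had a log2 fold change of -0.17 (edgeR adjusted p = 0.341), and CYBB had 17 and 18 counts.

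Of 32 myeloid maturation genes, 24 passed the filter, 5 were higher (2.36% of all genes tested) and 2 were lower (3.19%), with a median log2 fold change of 0.13. Both lower genes averaged under 50 counts a library. Among the 16 list genes with a mean of at least 50 counts 0 were lower and 5 higher. In that fit 235 of all 3683 genes were lower and 174 were higher. With DESeq2, which gave 6 of the 24 no adjusted p, 1 was lower and 7 were higher. Of all 4945 genes with an adjusted p from DESeq2, 164 were lower and 147 were higher. The higher genes were AIF1 (log2 fold change 0.50 ± 0.058 SE, edgeR adjusted p = 0.000283), a calcium-binding protein of macrophages, the granule proteases CTSG (0.32, adjusted p = 0.00486) and PRTN3 (0.45, 0.00753), the CD15 fucosyltransferase FUT4 (0.57, 0.0145) and the macrophage lysosomal protein CD68 (0.36, 0.0194). CD68 lost its call without shPTBP1 replicate 2 or 4 or shSCR replicate 4 (adjusted p up to 0.0672). CST3, which encodes cystatin C, fell from 47.6 ± 24.2 to 11 ± 6.64 normalized CPM (SD, n = 4), a change of -2.11 ± 0.41 (SE) on the log2 scale with an adjusted p of 0.0107 by edgeR. The groups nearly met, at 20.5 normalized CPM (32 counts) in shPTBP1 replicate 4 and 20.7 (31 counts) in shSCR replicate 3. CSF1R, the receptor of macrophage colony-stimulating factor, was named after its values were seen and had a log2 fold change of -0.97 (edgeR adjusted p = 0.0375). Not called were ITGAM, which encodes CD11b (-0.85, edgeR adjusted p = 0.245), VIM (-0.86, 0.0904) and, on the higher side, DEFA4 (1.05, 0.181). These genes too were named after their values were seen. Secondary granule genes that accompany S100A8 and S100A9 in maturing neutrophils were low, with LTF at 0 counts, LCN2 at 3 and CAMP at 34 in all libraries.

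Of 20 transcription factors linked to S100A8 and S100A9 expression or to myeloid maturation, 13 passed the filter, 2 were higher (2.36% of all genes tested) and 1 was lower (3.19%), with a median log2 fold change of 0.0072. EGR1, an immediate-early factor, rose from 123 ± 24.0 to 388 ± 24.6 normalized CPM (SD, n = 4), a change of 1.65 ± 0.11 (SE) on the log2 scale with an adjusted p of 3.71e-06 by edgeR. FOS, a subunit of AP-1, rose by 0.74 ± 0.094 on the log2 scale (edgeR adjusted p = 0.000537), and ID1, an inhibitor of basic helix-loop-helix factors, had a log2 fold change of -1.91 ± 0.37 (edgeR adjusted p = 0.0101). All 3 calls held without each library in turn. ID1 had few counts, at 7, 15, 21 and 21 in shPTBP1 libraries and 34, 88, 39 and 84 in shSCR libraries. For C/EBP factors, CEBPA and CEBPD had log2 fold changes of 0.098 and 0.048 and edgeR adjusted p-values of 0.606 and 0.962.

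**Figure D4:**
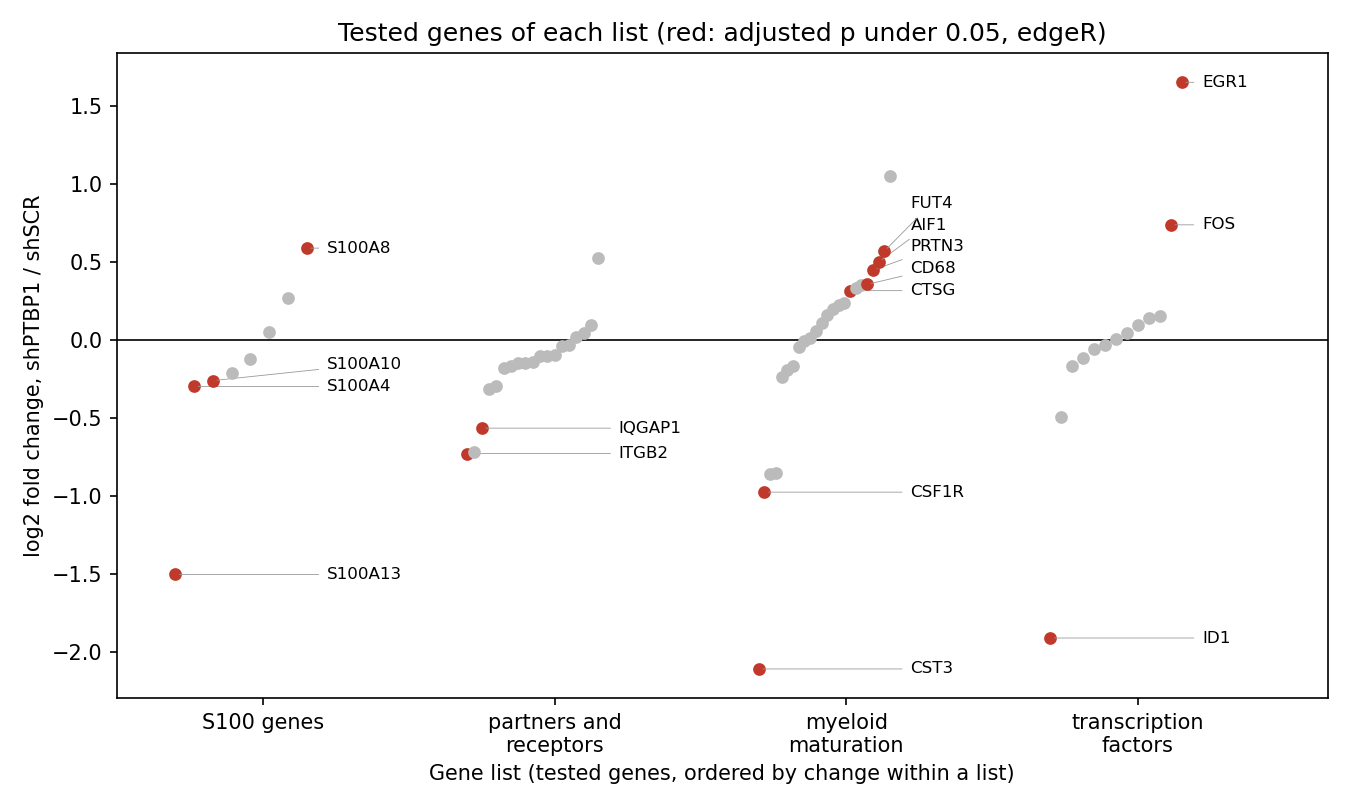
Log2 fold change, shPTBP1 over shSCR, of the tested genes of 4 lists (8 S100 genes, 19 partners and receptors, 24 maturation genes and 13 transcription factors), ordered by change within a list, with red for an edgeR adjusted p under 0.05. The red points of the partners lie below 0, at -0.56 and -0.73, and those of maturation genes lie on both sides, from -2.11 to 0.57.

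For the 4 S100 genes that were called, the genes with the most similar profile over the 8 libraries were ranked by the root mean square difference of centred log2 CPM, which is a description that the groups themselves shape. Nearest to S100A4 were BAK1, a pro-apoptotic BCL2 family member (0.0471, compared with a median of 0.278 over all genes), SNRPB, a core spliceosomal protein (0.0530), and TRPT1 (0.0587). Nearest to S100A10 were CES1, a carboxylesterase (0.0503), the RNA-binding protein KHSRP (0.0553) and INTS11, the Integrator endonuclease (0.0574). S100A8 was most like APOC1, an apolipoprotein (0.111, with a median of 0.405 over all genes), the non-coding RNA DANCR (0.113) and LST1 (0.121). Among the genes nearest to S100A13 were DPYD, which degrades pyrimidines (0.220, with a median of 0.697 over all genes), and CCDC85B (0.235).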

How the data were processed

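The deposited count table holds whole-number transcript counts that the authors made from nanopore cDNA reads (total RNA, PCR-cDNA kit with barcoding, PromethION) with minimap2 on hg38, mapping quality over 50 and StringTie, and per the labels no versions or annotation are stated. The deposited table named TPM equals CPM of these counts (largest difference 4.998e-07, tolerance 1e-06), and the authors' CPM were used only for that check. Transcripts were joined to GENCODE 44 by identifier (252562 of 254070) and summed per gene. Genes passing filterByExpr (minimum count 10) were tested with edgeR 4.0.16 (R 4.3.3, trimmed mean of M-values, quasi-likelihood test, group as only term, Benjamini-Hochberg threshold 0.05 over all genes tested), and isoforms with diffSpliceDGE and a minimum change of 0.1 in share. Ratios and shares were compared by exact permutation (scipy 1.17.1). DESeq2 1.42.0, limma 3.58.1, other filters and scalings, a replicate block and leaving out each library were alternatives. Named genes were all 9 members, up to 6 called genes per list by adjusted p, the 3 nearest profiles of each called member, and isoforms with at least 5% of counts, of which 1 nearest profile is not reported here. Members, lists and rules were chosen with earlier results of these data known. The labels call the libraries biological replicates without naming separate cultures, so p-values measure the spread between these libraries, and counting errors do not cover PCR duplicates. The fitting was tested on simulated data. A first run recovered fewer changed genes than its limit, and the limit was then reset to cover only genes with a mean of at least 50 counts. Recovery of genes with fewer counts was therefore not held to a limit.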

Additional observations from a re-analysis of the deposited data

Results flagged for a closer look

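In groups of 4 libraries, the highest or lowest was compared with its neighbour relative to the whole range (Dixon's ratio, at its 95% limit). The 68 groups covered named genes, ratios, isoform shares, and RUNX1, SPI1 and JUN, which the naming rule did not pick. Chance alone gives about 1 in 20 for continuous values, a rate that does not apply to genes at a few counts. The comparison singled out 4 values. S100A12 was at 2.57 normalized CPM in shSCR replicate 4, which is 4 counts, compared with 0.614 to 0.667 (1 count each) in the other shSCR libraries. AIF1 was at 1074 normalized CPM in shPTBP1 replicate 2, compared with 998 to 1010 in the other shPTBP1 libraries, and its call held without that library. RUNX1 was at 52.7 normalized CPM (80 counts) in shPTBP1 replicate 3, compared with 1.90 to 2.64 in the other shPTBP1 libraries and 2 to 8 counts in shSCR libraries, and did not pass the filter. Without that library, the log2 fold changes of S100A4, S100A8 and S100A10 were -0.29, 0.57 and -0.24, compared with -0.30, 0.59 and -0.26 with it. SPI1 was at 0.633 normalized CPM (1 count) in shPTBP1 replicate 1 and at 0 in the other shPTBP1 libraries, which fixes its ratio at 1.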

How the results depend on the processing

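Over 412 recomputed values, 365 were rated the same, 33 lost the threshold, 11 counts moved by more than 1.5 times and 3 reversed. A value rated the same kept its direction and side of the threshold, or for counts of calls moved by at most 1.5 times. Such a count can hide a lost call, as that of S100A8 without shSCR replicate 2. Some of these outcomes were fixed in advance, such as 0 calls among the other S100 family genes, which did not pass the filter. The ratios without 1 library could not pass either, since the smallest possible exact permutation p was 0.0571. The 4 S100 calls became 2 with DESeq2 (S100A4 and S100A10), and 1 to 4 when 1 library was left out: 1 without shPTBP1 replicate 3 or 4 (S100A13), and 2 without shPTBP1 replicate 2, shSCR replicate 1 or shSCR replicate 4. Calls over all genes fell too, from 421 to between 184 and 358 in these smaller fits. Partner genes called were 1 to 2, maturation genes 5 to 9 and transcription factors 3 in each. The S100A8 to S100A9 difference was 0.26 to 0.38 without 1 library (exact p = 0.0571, the smallest possible) and 0.33 with a replicate block (exact p = 0.125, the smallest possible). The S100A10 to ANXA2 difference was -0.068 to 0.16, reversed at -0.068, -0.053 and -0.036. Same-numbered libraries deviated together by r = -0.0328 to 0.00889, so numbers were not taken as pairs; the replicate block left 323 genes called, S100A10 not among them. At 7 to 24 counts S100A13, and at 1 to 4 counts S100A12, are limited by depth.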
